A study of Mus musculus with 15 samples.

Results

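Colon RNA of *Tert* knockout mice (KO) was compared with colon RNA of mice carrying an enzymatically inactive *Tert* allele (VAA), both during dextran sulfate sodium (DSS) colitis. The comparison takes the 3 KO and 3 VAA libraries labelled as DSS-treated, 6 of the 15 libraries of the series, and all genes expressed in them. These libraries were taken by their genotype and treatment labels, and the comparison itself was chosen with earlier results of these data known. The contrast is meant to set absence of the protein against presence of a protein without enzyme activity. Telomerase activity was not measured, and the zygosity of the VAA allele is not given.

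The animals were 8 to 12 weeks old. They drank 3% DSS for 4 days and plain water for 4 more, and colon tissue was collected on day 8. The labels write the KO genotype as TERT-/-, the inactive allele as TERTVAA and the wild type (WT) as TERT+/+. Set beside them are 3 WT libraries under DSS and 2 untreated libraries of each genotype. The sources used here give neither the zygosity of TERTVAA, nor the part of *Tert* removed in the knockout, nor strain or littermate status, and no tissue-restricted driver is named. The labels do not state that replicates came from separate mice, so each *P* value reflects only how far these samples spread, which may be technical.

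TERT is the reverse transcriptase subunit of telomerase, which copies the template in the RNA *Terc* onto chromosome ends. Roles of the TERT protein outside telomere copying, in Wnt and NF-kB dependent transcription among others, have been described in other systems. DSS in drinking water damages the colonic epithelium, bacteria reach the mucosa, neutrophils and monocytes enter, and the epithelium then regrows with a changed secretory and absorptive programme. The series title names the cGAS-STING pathway, which senses DNA in the cytosol.

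*Tert* was nearly undetected in KO. It had 0, 0 and 1 estimated counts in the KO DSS libraries, against 29, 12 and 7 in VAA DSS replicates 1, 2 and 3, and 26, 36 and 23 in WT DSS. Summed and scaled to depth, the VAA libraries held 44.4 times the KO level, with an exact 95% counting interval of 7.6 to 1790. VAA held 55.7% of the WT level under DSS (38.3% to 80.2%) and 59.6% untreated (39.6% to 88.4%), both intervals lying below the WT level and covering counting error only. TERT protein was not measured here. The gene lies at chr13:73626911-73649843 on the plus strand of mm10. Colon identity held in all 15 libraries: *Hoxb13*, a distal colon factor, stood at 104 to 271 CPM (counts scaled to library depth), while *Lct*, the small-intestinal lactase, had 55 counts over all 15 libraries.

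Library totals ran from 10561247 to 17541584 estimated counts, and the lowest of them was VAA DSS replicate 3. That library stood apart. Of 35 genes whose values were identical to another gene, the 3 most abundant, all predicted models, took 13.59% of its counts. In the other libraries the same 3 took 4.145% to 9.648%. To VAA DSS replicate 3 limma gave a quality weight of 0.18. Along the first principal component of the 6 libraries, which held 59.4% of the variance, VAA replicate 3 lay at -100.5, VAA replicates 1 and 2 at -29.72 and -0.1825, and the KO libraries between 38.94 and 47.69. For KO against VAA under DSS, counts over gene lists are therefore given with and without VAA replicate 3, a name used here for VAA DSS replicate 3. A single called gene is given both ways at least where leaving it out ended the call or moved the value by over 1.5 times.

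Of 17477 genes tested among 32544 symbols, 2695 (15.4%) passed an edgeR adjusted *P* of 0.05, called below. In KO, 1051 genes (6.01%) were higher and 1644 (9.41%) were lower than in VAA. These shares over all genes are the background for each list count below. The lower genes moved farther, with a median absolute log2 fold change of 1.46 against 0.72 among the higher ones, and 154 of them were lower by more than 8-fold against 14 higher by as much. KO and VAA DSS libraries did not overlap for 28.4% of all genes tested and for 2587 of the 2695 called. Where a called gene is said below to lie apart in every library, that is therefore no added result. Without VAA replicate 3, 2016 of 17361 genes (11.6%) were called, 870 (5.01%) higher and 1146 (6.6%) lower. Of the genes first called, 751 of the 1051 higher (71.5%) and 942 of the 1644 lower (57.3%) were called again in the same direction. The number passing depended on which libraries entered the fit: on the 6 libraries alone, 545 genes were called, 249 higher and 296 lower. The balance of directions also differed between fits: 39% of calls were higher in the count fit, 40.1% with DESeq2 size factors in place of TMM scaling, and 28% (717 of 2558) in limma on the deposited log2 CPM, whose median over all genes was -0.09 rather than -0.01. Leaving out KO DSS replicate 2, 1380 genes were called, leaving out KO DSS replicate 1, 1479, and leaving out KO DSS replicate 3, 1599.

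**Figure D1:**
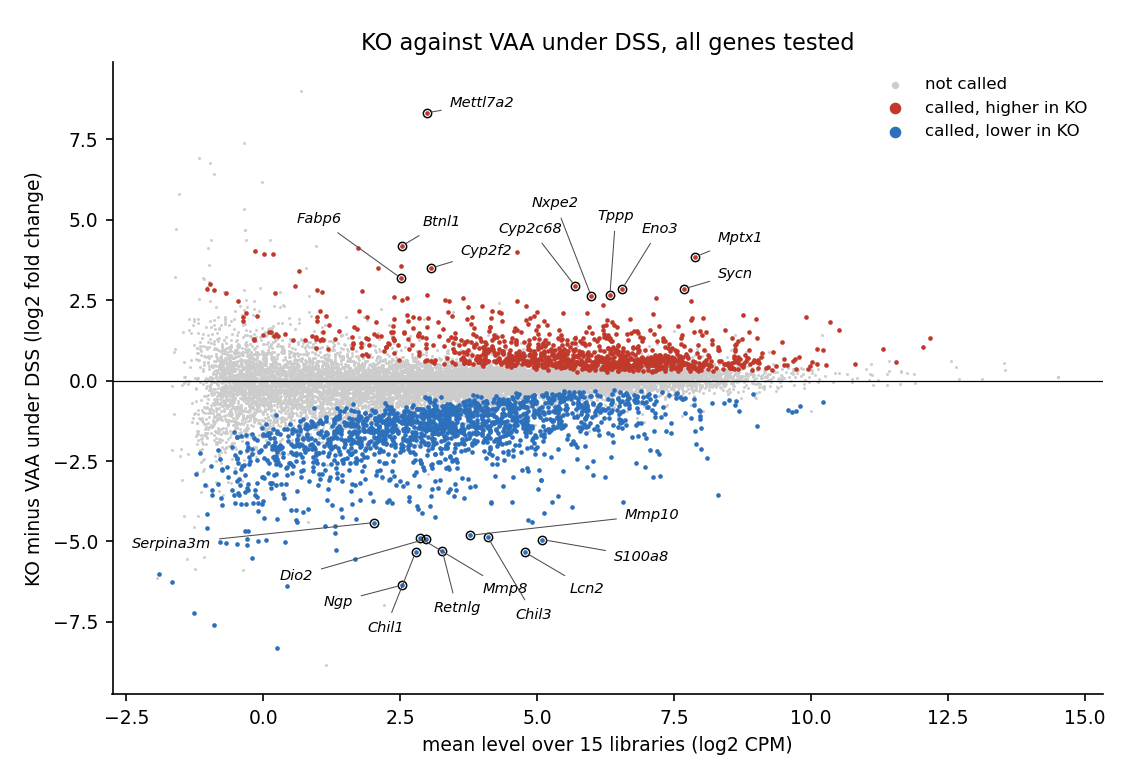
Each point is a gene; the horizontal axis is its mean log2 CPM over 15 libraries and the vertical axis the log2 fold change of KO over VAA under DSS, with called genes coloured by direction and the 10 highest and 10 lowest named genes labelled. The downward arm reaches farther than the upward arm, with 154 called genes lower by more than 8-fold and 14 higher.

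**Figure D2:**
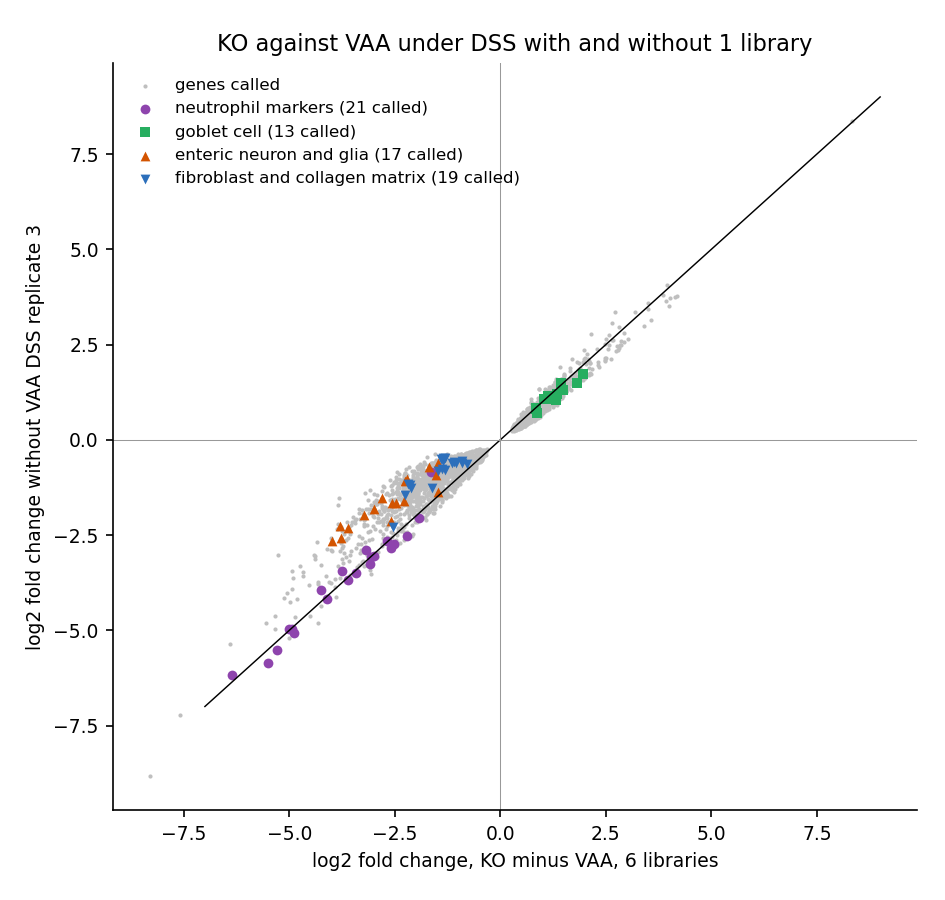
The log2 fold change of KO over VAA under DSS for called genes, with all libraries on the horizontal axis and without VAA DSS replicate 3 on the vertical axis; colours mark members of 4 gene lists and the diagonal marks equality. Neutrophil and goblet genes lie near the diagonal, and many neuron, glia and fibroblast genes lie above it, closer to 0 without that library.

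Among the 10 genes farthest below VAA in KO were *Ngp*, *Lcn2* and *S100a8*. *Ngp*, a cationic granule protein of maturing neutrophils, measured 0.155, 0.136 and 0.297 CPM in the KO libraries and 26.6, 2.95 and 20.7 CPM in the VAA libraries (log2 fold change -6.36 ± 0.87 SE, edgeR adjusted *P* = 0.0011). *Lcn2*, the siderophore-binding lipocalin 2, was at 2.25, 2.32 and 1.56 CPM in KO and 91.1, 37.1 and 122 CPM in VAA (log2 fold change -5.34 ± 0.44 SE, edgeR adjusted *P* = 6.2e-05). *S100a8*, one subunit of calprotectin, reached 3.33, 4.16 and 1.93 CPM in the KO libraries and 128, 72.2 and 91.6 CPM in the VAA libraries (log2 fold change -4.94 ± 0.34 SE, edgeR adjusted *P* = 1.4e-05). The rule that picked the 10 lowest and 10 highest genes required KO and VAA libraries not to overlap, so their separation is no added result. In these genes the WT DSS libraries lay on the VAA side, at 7.67 to 17.3, 37.1 to 70.6 and 57.4 to 86.3 CPM. Without VAA replicate 3 the fold changes were -6.18, -4.96 and -4.98.

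The other genes among the 10 lowest were *Chil1*, a chitinase-like protein (-5.33, and -4.63 without VAA replicate 3), *Retnlg*, a resistin-like neutrophil product (-5.29 and -5.53), *Dio2*, the thyroid hormone activating deiodinase (-4.92 and -3.63), *Mmp8*, neutrophil collagenase (-4.90 and -5.06), *Chil3*, a macrophage chitinase-like protein (-4.87 and -4.64), *Mmp10*, stromelysin 2 (-4.81 and -4.19), and *Serpina3m*, a serine protease inhibitor (-4.41 and -3.02). VAA replicate 3 carried 62 CPM of *Dio2* and 29.8 CPM of *Serpina3m* and was the highest VAA library for both. *Serpina3m* missed the threshold when only the 6 libraries were fitted (adjusted *P* = 0.051).

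Among the 10 genes farthest above VAA in KO were *Mettl7a2*, *Btnl1* and *Fabp6*. *Mettl7a2*, a methyltransferase-like gene with near-identical neighbours, had 114 counts over the KO DSS libraries and 0 over the VAA DSS libraries. Against a floor of 3 counts over the group it was 41.1-fold higher, and the exact 95% counting interval of the depth-scaled ratio began at 32.9. It stood at 4.34, 1.64 and 2.53 CPM in KO, 0.292, 0.307 and 0.649 CPM in WT DSS and 12.2 to 17.5 CPM in untreated VAA, so its transcripts were measurable in VAA colon without DSS. *Btnl1*, a butyrophilin-like molecule of gut epithelium that supports intraepithelial gamma delta T cells, stood at 10.3, 6.48 and 7.51 CPM in KO and 0.181, 0.983 and 0 CPM in VAA (log2 fold change 4.20 ± 0.63 SE, edgeR adjusted *P* = 0.0015). *Fabp6*, a bile acid binding protein, measured 30.9, 8.87 and 20.1 CPM in the KO libraries and 1.2, 2.66 and 2.78 CPM in the VAA libraries (log2 fold change 3.18 ± 0.45 SE, edgeR adjusted *P* = 0.0012), against 0.906 to 2.21 CPM in untreated KO. As above, the rule that picked these genes required KO and VAA libraries not to overlap.

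*Mptx1*, a pentraxin of colonic epithelium, was at 9.93, 14.1 and 54.4 CPM in KO and 0.482, 3.24 and 1.63 CPM in VAA (log2 fold change 3.85 ± 0.67 SE, edgeR adjusted *P* = 0.0034, and 3.80 without VAA replicate 3). The call was lost on the 6 libraries alone (adjusted *P* = 0.057), and untreated colon held 795 to 823 CPM in KO and 465 to 487 CPM in VAA, far above every DSS library. *Sycn*, syncollin, a secretory granule protein, reached 53.9, 39 and 72.5 CPM in the KO libraries and 3.97, 14.5 and 3.84 CPM in the VAA libraries (log2 fold change 2.86 ± 0.48 SE, edgeR adjusted *P* = 0.0028). *Tppp*, a tubulin-binding protein whose gene lies near *Tert* on chromosome 13, stood at 88.8, 25 and 43.8 CPM in KO and 6.86, 10.1 and 7.87 CPM in VAA (log2 fold change 2.66 ± 0.40 SE, edgeR adjusted *P* = 0.0016). The remaining genes of the 10 highest were *Cyp2f2* (3.50, and 3.58 without VAA replicate 3) and *Cyp2c68* (2.94 and 2.81), both cytochrome P450 genes, *Eno3*, an enolase (2.85 and 2.49), and *Nxpe2*, a neurexophilin-family gene (2.64 and 2.62). Only *Cyp2f2* and *Mptx1* of these 10 missed the threshold on the 6 libraries alone, *Cyp2f2* at an adjusted *P* of 0.051.

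Neutrophil markers were lower in KO almost throughout. Of 30 markers listed, 25 passed the filter on low counts, 21 of them were lower in KO and 0 higher, and the median log2 fold change was -3.10 against -0.01 over all genes tested. The filter could be met in any group. Of the 25, 2 passed only through groups other than KO DSS and so could be called only lower, if at all. These were *Stfa2* (1 count in KO and 47 in VAA) and *Mrgpra2b* (1 and 71). Without VAA replicate 3, 22 were lower at a median of -3.07. Summed over the list, the KO DSS libraries held 203, 231 and 189 CPM, the VAA DSS libraries 1266, 767 and 1295 CPM and the WT DSS libraries 715, 743 and 601 CPM, against 89.6 to 126 CPM in untreated colon. In these bulk samples fewer cells of a type and less RNA per cell cannot be told apart.

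*S100a9*, the other calprotectin subunit, measured 4.42, 7.16 and 4.39 CPM in the KO libraries and 126, 69.2 and 82.2 CPM in the VAA libraries (log2 fold change -4.11 ± 0.28 SE, edgeR adjusted *P* = 1.4e-05). *Csf3r*, the receptor for the neutrophil growth factor G-CSF, named here after its values were seen, was at 6.75, 7.71 and 8.62 CPM in KO and 35.4, 29.3 and 22.5 CPM in VAA (log2 fold change -1.92 ± 0.22 SE, edgeR adjusted *P* = 0.00048). *Retnlg* stood at 0.543, 0.614 and 0.669 CPM in KO and 36.5, 20.8 and 14.9 CPM in VAA. KO lay below VAA in every library for *S100a9* and *Csf3r*, and for *Retnlg* by the rule that picked it. Among the 4 members that did not pass, *Cxcr2*, a chemokine receptor of neutrophils, stood at 29.5, 21.6 and 22 CPM in KO and 33.3, 31.3 and 33.4 CPM in VAA (log2 fold change -0.42 ± 0.20 SE, edgeR adjusted *P* = 0.19), and *Mpo*, myeloperoxidase of early granulocyte stages, at 1.55, 0.341 and 1.49 CPM in KO and 1.08, 0.347 and 1.15 CPM in VAA (log2 fold change 0.40 ± 0.52 SE, edgeR adjusted *P* = 0.69, and 0.65 without VAA replicate 3).

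Markers of monocytes and macrophages leaned lower in KO, with 25 of 28 at a log2 fold change below 0, but many did not pass. Of 28 tested, 12 were lower in KO and 0 higher at a median of -0.87, and without VAA replicate 3, 11 were lower and 2 higher at a median of -0.69. The count fell to 7 without KO DSS replicate 2, and to 4 on the 6 libraries alone. *Nos2*, inducible nitric oxide synthase of macrophages and inflamed epithelium, reached 129, 131 and 196 CPM in the KO libraries and 729, 645 and 431 CPM in the VAA libraries (log2 fold change -1.98 ± 0.33 SE, edgeR adjusted *P* = 0.0027). *Msr1*, a scavenger receptor, stood at 5.97, 5.8 and 7.88 CPM in KO and 17.2, 18.2 and 18.5 CPM in VAA (log2 fold change -1.45 ± 0.25 SE, edgeR adjusted *P* = 0.003). *Marco*, another scavenger receptor, was lower as well (-3.20, and -2.68 without VAA replicate 3). *Adgre1*, the macrophage surface marker F4/80, overlapped between the groups, at 9.69, 8.8 and 14.7 CPM in KO and 19.3, 13.6 and 15.7 CPM in VAA (log2 fold change -0.55 ± 0.29 SE, edgeR adjusted *P* = 0.23).

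Among secreted signals, the neutrophil-attracting CXC chemokines were lower in KO. Of 27 chemokine genes tested, 12 were lower and 3 higher at a median of -0.86, and without VAA replicate 3, 12 were lower and 2 higher at a median of -0.85. Lower calls numbered 6 when KO DSS replicate 1 or 2 was left out, and 6 on the 6 libraries alone. *Cxcl1*, *Cxcl2* and *Cxcl3* are neighbours on chromosome 5 and encode ligands of the neutrophil receptor CXCR2. Their promoters, and that of the cytokine gene *Il6* on the same chromosome, are shown because these genes were lower together and each holds the NF-kB letters GGG and TTTCC separated by 2 bases of any kind, on either strand and written in capitals. The sequences are the 250 bases before the RefSeq gene start in GRCm38.p6, all on the plus strand: *Cxcl1* at chr5:90890995-90891244, *Cxcl2* at chr5:90903649-90903898, *Cxcl3* at chr5:90785851-90786100 and *Il6* at chr5:30012864-30013113.
Cxcl1: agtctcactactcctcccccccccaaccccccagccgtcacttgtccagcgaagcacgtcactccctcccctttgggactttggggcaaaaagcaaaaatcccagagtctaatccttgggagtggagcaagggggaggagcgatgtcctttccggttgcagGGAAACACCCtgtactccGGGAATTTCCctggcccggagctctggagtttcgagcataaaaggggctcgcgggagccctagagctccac
Cxcl2: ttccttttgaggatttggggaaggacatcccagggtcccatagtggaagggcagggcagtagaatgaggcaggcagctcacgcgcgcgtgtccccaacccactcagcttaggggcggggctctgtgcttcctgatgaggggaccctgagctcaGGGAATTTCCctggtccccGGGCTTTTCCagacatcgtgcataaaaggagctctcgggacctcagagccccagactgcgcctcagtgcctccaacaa
Cxcl3: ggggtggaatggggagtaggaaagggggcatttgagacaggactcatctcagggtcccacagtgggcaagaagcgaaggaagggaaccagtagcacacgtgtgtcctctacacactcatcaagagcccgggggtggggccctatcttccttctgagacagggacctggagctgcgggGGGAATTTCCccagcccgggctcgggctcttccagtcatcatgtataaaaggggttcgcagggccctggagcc
Il6: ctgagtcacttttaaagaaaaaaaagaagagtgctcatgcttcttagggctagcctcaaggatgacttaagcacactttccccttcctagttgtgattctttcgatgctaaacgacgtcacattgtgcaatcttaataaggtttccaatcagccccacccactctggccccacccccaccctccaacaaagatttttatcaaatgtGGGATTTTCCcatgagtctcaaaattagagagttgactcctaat

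These letters, or GGAAA and CCC separated by 2 bases as read on the other strand, occurred in 1.41% of 32851 RefSeq promoters of the same length. They occurred in 5 of 20 promoters (25.0%) of the tested chemokine genes and in 4 of 22 (18.2%) of the tested cytokine genes. A match is a description of the sequence and was not measured as a bound site. The share among promoters of all genes lower in KO was 1.97%, and among those higher 1.64%, against 1.46% among promoters of all genes tested.

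*Cxcl2* measured 2.33, 1.98 and 4.24 CPM in the KO libraries and 34.4, 27.9 and 28.1 CPM in the VAA libraries (log2 fold change -3.40 ± 0.32 SE, edgeR adjusted *P* = 0.00015, and -3.45 without VAA replicate 3). *Cxcl3* was at 1.47, 1.71 and 1.34 CPM in KO and 15.2, 12.4 and 10.1 CPM in VAA (log2 fold change -3.05 ± 0.34 SE, edgeR adjusted *P* = 0.00039). *Cxcl5* reached 25.4, 25.4 and 17.8 CPM in the KO libraries and 179, 209.8 and 135 CPM in the VAA libraries (log2 fold change -2.93 ± 0.35 SE, edgeR adjusted *P* = 0.00053). The KO libraries lay below every VAA library in each, as in most genes called lower, and *Cxcl5* is a further CXCR2 ligand made by epithelium. *Cxcl1*, named for its promoter, stood at 2.48, 2.12 and 1.41 CPM in KO and 6.38, 7.23 and 7.11 CPM in VAA (log2 fold change -1.78 ± 0.49 SE, edgeR adjusted *P* = 0.027). Its call was lost when any 1 KO DSS library was left out, at adjusted *P* of 0.061, 0.08 and 0.1 for replicates 1, 2 and 3. In the opposite direction, *Ccl6*, a myeloid CC chemokine, stood at 86.4, 97.9 and 124 CPM in KO and 31.3, 56.5 and 24.2 CPM in VAA (log2 fold change 1.45 ± 0.26 SE, edgeR adjusted *P* = 0.0035). The interferon-induced *Cxcl10* overlapped between the groups, at 3.57, 4.43 and 8.47 CPM in KO and 21.1, 34.7 and 6.43 CPM in VAA, with VAA replicate 3 near the KO level (log2 fold change -1.93 ± 0.67 SE, edgeR adjusted *P* = 0.069, and -2.34 (adjusted *P* = 0.022) without it).

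Calls among inflammatory cytokines went the same way. As neutrophil markers moved with them, their part in the chemokine and cytokine differences was not tested. Of 21 tested, 8 were lower in KO and 0 higher at a median of -1.18, and without VAA replicate 3, 9 were lower at -1.34. Of the 21, 3 had 3 or fewer counts over the KO libraries, *Csf3*, *Il10* and *Il22*. They passed the filter only through groups other than KO DSS and could be called only lower, if at all. *Il1b*, interleukin 1 beta, stood at 10.6, 12.5 and 13.6 CPM in KO and 71.8, 79.4 and 28.3 CPM in VAA (log2 fold change -2.29 ± 0.35 SE, edgeR adjusted *P* = 0.0016). *Il6*, named for its promoter, stood at 0.233, 0.0682 and 0.297 CPM in KO and 1.69, 3.87 and 4.42 CPM in VAA (log2 fold change -4.01 ± 0.80 SE, edgeR adjusted *P* = 0.0065). *Osm*, oncostatin M, an IL-6 family cytokine, stood at 0.698, 0.546 and 0.669 CPM in KO and 6.74, 3.7 and 4.9 CPM in VAA (log2 fold change -2.99 ± 0.38 SE, edgeR adjusted *P* = 0.00077). All 3 were lower in every KO library. *Csf3*, which encodes G-CSF, had 3 counts over the KO libraries and 103 over the VAA libraries, a depth-scaled ratio of 31.8 in favour of VAA (exact 95% counting interval 10.6 to 157). *Il33*, an epithelial and stromal alarmin, was lower too (-3.20, and -2.82 without VAA replicate 3). *Tnf*, tumour necrosis factor, did not pass (log2 fold change -0.96 ± 0.57 SE, edgeR adjusted *P* = 0.31, and -1.29 (adjusted *P* = 0.14) without VAA replicate 3).

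Of 24 NF-kB target genes tested, 12 were lower in KO and 0 higher at a median of -0.62, and 10 were lower without VAA replicate 3 at a median of -0.50. *Socs3*, a feedback inhibitor of STAT3 signalling, measured 18.3, 23.1 and 35.3 CPM in the KO libraries and 129, 119 and 249 CPM in the VAA libraries (log2 fold change -2.69 ± 0.35 SE, edgeR adjusted *P* = 0.00077, and -2.27 without VAA replicate 3). *Cebpb*, a transcription factor of acute phase and myeloid genes, was at 20.2, 26.2 and 21.4 CPM in KO and 73.7, 38.8 and 90.3 CPM in VAA (log2 fold change -1.58 ± 0.25 SE, edgeR adjusted *P* = 0.0018). *Icam1*, an adhesion molecule for leukocytes, and *Tnfaip2* were lower by larger amounts (-1.85 and -2.35). *Tnfaip3*, the A20 feedback inhibitor, was lower by less, at 104, 96.5 and 123 CPM in KO and 159, 173 and 171 CPM in VAA (log2 fold change -0.64 ± 0.20 SE, edgeR adjusted *P* = 0.043), and missed the threshold without VAA replicate 3 (adjusted *P* = 0.078).

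**Figure D3:**
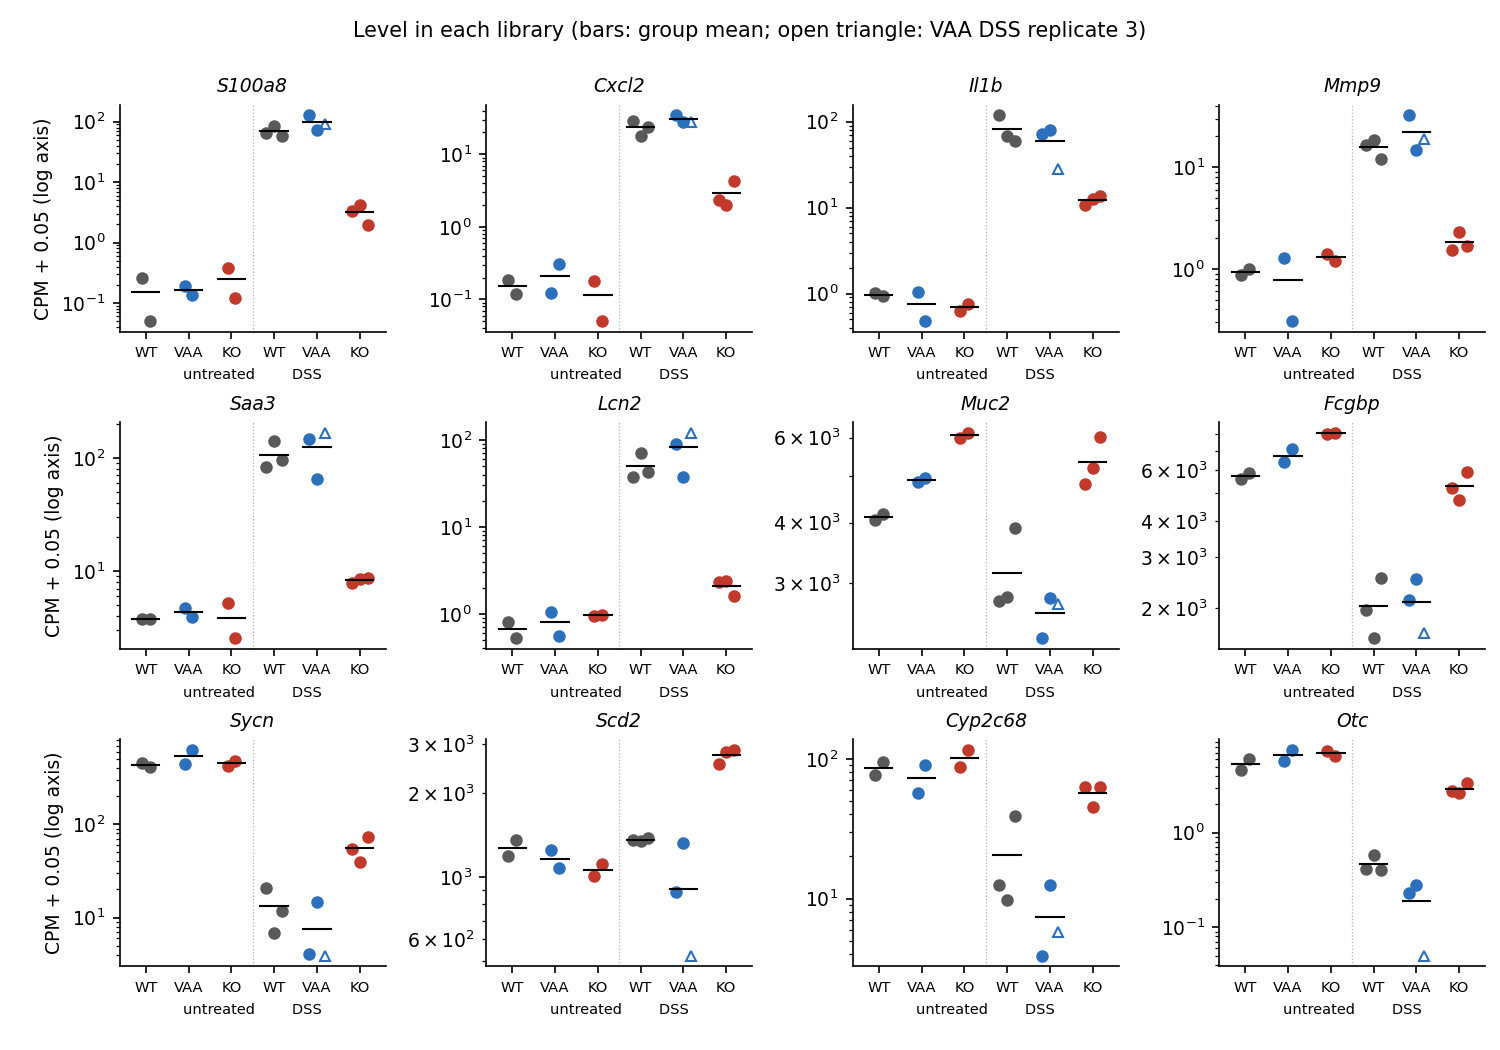
CPM plus 0.05 on a log axis for 12 genes in each of the 15 libraries, grouped by genotype and treatment, with an open triangle for VAA DSS replicate 3. For *S100a8*, *Cxcl2*, *Il1b*, *Mmp9*, *Saa3* and *Lcn2* the 3 KO DSS libraries lie below the VAA DSS libraries, and for *Muc2*, *Fcgbp*, *Sycn*, *Scd2*, *Cyp2c68* and *Otc* they lie above.

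Epithelial antimicrobial and acute phase genes divided. Of 25 tested, 9 were lower in KO and 5 higher at a median of -0.37, and without VAA replicate 3, 8 were lower and 5 higher at -0.49. The promoters of *Saa3* and *Ngp* are shown because both genes stood far below VAA and hold the C/EBP letters TTGCNNAA, or TTNNGCAA on the other strand, in capitals. They are RefSeq GRCm38.p6 sequences, *Saa3* at chr7:46715677-46715926 on the minus strand and *Ngp* at chr9:110419558-110419807 on the plus strand.
Saa3: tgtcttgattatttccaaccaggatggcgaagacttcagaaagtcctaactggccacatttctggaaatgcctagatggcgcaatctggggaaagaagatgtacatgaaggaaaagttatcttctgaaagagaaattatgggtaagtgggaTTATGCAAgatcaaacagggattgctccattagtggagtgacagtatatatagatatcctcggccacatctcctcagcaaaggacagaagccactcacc
Ngp: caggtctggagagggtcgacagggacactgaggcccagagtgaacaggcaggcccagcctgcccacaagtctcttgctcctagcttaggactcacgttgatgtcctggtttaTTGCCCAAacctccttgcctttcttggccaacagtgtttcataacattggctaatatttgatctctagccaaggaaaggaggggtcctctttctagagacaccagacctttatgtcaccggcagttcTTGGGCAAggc

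These letters occurred in 9.56% of all RefSeq promoters of that length, in 7 of 24 (29.2%) of the tested neutrophil markers and in 7 of 22 (31.8%) of the tested antimicrobial and acute phase genes. Lists with few calls held them at similar shares, 6 of 16 (37.5%) for plasma cell genes and 5 of 22 (22.7%) for T and NK cell genes. The share was 10.3% among promoters of all genes lower in KO and 8.41% among those higher, against 7.98% among promoters of all genes tested. *Saa3*, an acute phase apolipoprotein, reached 7.76, 8.46 and 8.7 CPM in the KO libraries and 146, 64.6 and 167 CPM in the VAA libraries (log2 fold change -3.92 ± 0.35 SE, edgeR adjusted *P* = 0.00012, and -3.66 without VAA replicate 3). *Hp*, haptoglobin, was lower as well (-3.29, and -2.73 without VAA replicate 3). *Sprr2d*, a cornified envelope protein of a closely related family, had 2 counts in KO and 184 in VAA, a scaled ratio of 85.1 in favour of VAA (exact 95% counting interval 23.2 to 708). It too passed the filter only through groups other than KO DSS. Going the other way, *Reg4*, a lectin of secretory epithelium, stood at 57.4, 70.3 and 69.4 CPM in KO and 12.9, 21.9 and 3.17 CPM in VAA (log2 fold change 2.34 ± 0.41 SE, edgeR adjusted *P* = 0.0035), a call lost on the 6 libraries alone (adjusted *P* = 0.062). *Pigr*, which carries IgA across the epithelium, stood at 3264, 2791 and 3885 CPM in KO and 1973, 1689 and 1317 CPM in VAA (log2 fold change 1.00 ± 0.21 SE, edgeR adjusted *P* = 0.0075). *Reg4* and *Pigr* were picked after their values were seen, and KO lay above VAA in every library for both.

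Proteases and protease inhibitors of tissue remodelling were the other group almost wholly lower in KO. Of 18 matrix metalloproteinase and inhibitor genes tested, 16 were lower and 0 higher at a median of -1.98, and without VAA replicate 3, 15 were lower at -1.67. On the 6 libraries alone 9 of them passed. *Timp3*, a metalloproteinase inhibitor held in the matrix, stood at 45.8, 44.1 and 52 CPM in KO and 133, 144 and 189.9 CPM in VAA (log2 fold change -1.72 ± 0.20 SE, edgeR adjusted *P* = 0.00044). *Serpina3n*, an inhibitor of serine proteases, measured 19.3, 18.1 and 29.7 CPM in the KO libraries and 185, 108 and 632 CPM in the VAA libraries (log2 fold change -3.78 ± 0.53 SE, edgeR adjusted *P* = 0.0011, and -2.70 without VAA replicate 3, the highest of the 3 VAA libraries). *Plaur*, the urokinase receptor, and *Timp1*, a secreted metalloproteinase inhibitor, were lower as well (-1.79 and -2.78). *Mmp9*, gelatinase B of neutrophils, picked after its values were seen, stood at 1.47, 2.25 and 1.64 CPM in KO and 32.2, 14.5 and 18.8 CPM in VAA (log2 fold change -3.60 ± 0.39 SE, edgeR adjusted *P* = 0.00032).

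Complement genes were lower in 10 of 18 tested and higher in 0, at a median of -0.95, and 9 were lower without VAA replicate 3 at a median of -0.76. *C3*, the central component of the cascade, was at 155, 130.3 and 173 CPM in KO and 753, 319 and 1368 CPM in VAA (log2 fold change -2.41 ± 0.39 SE, edgeR adjusted *P* = 0.0022, and -1.81 without VAA replicate 3). *Itgam*, the complement receptor 3 alpha chain of myeloid cells, and *C5ar1*, the anaphylatoxin C5a receptor, were lower (-2.12 and -2.04). The 3 KO libraries lay below all 3 VAA libraries for *C3*.

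Genes of the repairing epithelium were lower more often than higher. Of 27 tested from a fetal-like regenerative programme, 13 were lower and 1 higher at a median of -0.75, and without VAA replicate 3, 12 and 1 at -0.64. Leaving out KO DSS replicate 2, 7 were lower, leaving out KO DSS replicate 3, 8, and on the 6 libraries alone, 6. *Il1rl1*, the IL-33 receptor, reached 9.07, 10.7 and 8.62 CPM in the KO libraries and 33, 42.6 and 81.2 CPM in the VAA libraries (log2 fold change -2.46 ± 0.32 SE, edgeR adjusted *P* = 0.00077). *Cldn4*, a tight junction claudin, stood at 51.8, 39.4 and 38.8 CPM in KO and 80.2, 83.7 and 69.6 CPM in VAA (log2 fold change -0.85 ± 0.13 SE, edgeR adjusted *P* = 0.0015). *Gja1*, connexin 43, was lower too (-1.47, and -1.12 without VAA replicate 3).

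In the EGF receptor system ligands were lower and a receptor was higher. *Ereg*, epiregulin, measured 10.7, 8.53 and 10.6 CPM in the KO libraries and 70.4, 39.5 and 96 CPM in the VAA libraries (log2 fold change -2.79 ± 0.29 SE, edgeR adjusted *P* = 0.00029). *Areg*, amphiregulin, was at 18.8, 18.6 and 14 CPM in KO and 37.7, 32.8 and 31.6 CPM in VAA (log2 fold change -0.99 ± 0.20 SE, edgeR adjusted *P* = 0.0075). *Erbb2*, the receptor without a ligand of its own, reached 254, 245 and 223 CPM in the KO libraries and 136, 155 and 147 CPM in the VAA libraries (log2 fold change 0.72 ± 0.14 SE, edgeR adjusted *P* = 0.0065). *Epgn*, epigen, was lower as well (-2.98). Over the 12 genes of this system, 3 were lower and 2 higher at a median of -0.21, and without VAA replicate 3, 3 were lower and 1 higher at -0.10.

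Among goblet cell genes every call was higher in KO. Of 25 tested, 13 were higher and 0 lower at a median of 0.85, and without VAA replicate 3, 15 were higher at 0.80. Summed over the list, KO DSS libraries held 20531, 18906 and 22913 CPM, VAA DSS libraries 10673, 12768 and 11159 CPM and WT DSS libraries 11547, 11283 and 14229 CPM, while untreated libraries of all genotypes held 20716 to 29300.5 CPM. The KO DSS libraries lay above the VAA and WT DSS libraries without overlap. Epithelial identity genes, which other epithelial cells share, summed to 16368, 14236 and 15049 CPM in KO DSS and 10926, 12412 and 9951 CPM in VAA DSS, and their part in the goblet difference was not tested.

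*Muc2*, the gel-forming mucin of colonic mucus, stood at 4813, 5185 and 6009 CPM in KO and 2300.4, 2787 and 2709 CPM in VAA (log2 fold change 1.04 ± 0.15 SE, edgeR adjusted *P* = 0.0012, and 1.07 without VAA replicate 3). *Fcgbp*, a mucus-binding protein, measured 5196, 4740.4 and 5925 CPM in the KO libraries and 2131, 2519 and 1637 CPM in the VAA libraries (log2 fold change 1.34 ± 0.19 SE, edgeR adjusted *P* = 0.0011). *Tff3*, trefoil factor 3, was at 321, 308 and 434 CPM in KO and 153, 183 and 140.5 CPM in VAA (log2 fold change 1.15 ± 0.17 SE, edgeR adjusted *P* = 0.0015). *Klk1*, a kallikrein (1.96), and *Clca1*, a mucus-processing protease picked after its values were seen (1.82), were higher by larger amounts. *Retnlb*, a goblet cell product induced by bacteria, did not pass, at 37.2, 40.7 and 59.2 CPM in KO and 29, 51.2 and 65.3 CPM in VAA (log2 fold change -0.08 ± 0.33 SE, edgeR adjusted *P* = 0.92, and 0.20 without VAA replicate 3).

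Absorptive colonocyte genes leaned the same way by smaller amounts. Of 34 tested, 12 were higher and 2 lower at a median of 0.51, and without VAA replicate 3, 9 and 1 at 0.45; on the 6 libraries alone 3 were higher. *Slc26a2*, a sulfate transporter, reached 855, 756 and 887 CPM in the KO libraries and 424, 383 and 492 CPM in the VAA libraries (log2 fold change 0.94 ± 0.19 SE, edgeR adjusted *P* = 0.007). *Car2*, a carbonic anhydrase, stood at 480.4, 300.2 and 402 CPM in KO and 157, 225 and 159 CPM in VAA (log2 fold change 1.13 ± 0.23 SE, edgeR adjusted *P* = 0.0068). Epithelial identity and junction genes were higher in 10 of 24 and lower in 0 at a median of 0.41, with 6 higher if either VAA replicate 3 or KO DSS replicate 1 was left out, and 1 on the 6 libraries alone. Detoxification genes were higher in 9 of 24 and lower in 1 at a median of 0.52, and without VAA replicate 3, 8 and 2 at 0.65; on the 6 libraries alone 3 were higher. The 4 called members of smallest *P* were *Sult1a1*, a sulfotransferase (1.81), *Cyp2s1*, a cytochrome P450 (1.89), *Gstm3*, a glutathione transferase (1.92), and *Ugt1a1*, a glucuronosyltransferase (1.07).

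Part of the lipid synthesis list was higher in KO. Of 24 genes of cholesterol and fatty acid synthesis, 12 were higher and 0 lower at a median of 0.77, and without VAA replicate 3, 10 were higher at 0.51. The count rested on single libraries: omitting VAA DSS replicate 2 gave 23, omitting KO DSS replicate 2 or 3 gave 6 or 7, and the 6 libraries alone gave 4. *Scd2*, a stearoyl-CoA desaturase, measured 2543, 2795 and 2859 CPM in the KO libraries and 883, 1322 and 524 CPM in the VAA libraries (log2 fold change 1.59 ± 0.24 SE, edgeR adjusted *P* = 0.0015). *Acly*, ATP citrate lyase, was at 676, 712 and 736 CPM in KO and 300.3, 368 and 171 CPM in VAA (log2 fold change 1.34 ± 0.21 SE, edgeR adjusted *P* = 0.0019). *Srebf1*, the gene of the lipogenic transcription factors SREBP-1, reached 132, 162 and 149 CPM in the KO libraries and 79.3, 94.5 and 75.1 CPM in the VAA libraries (log2 fold change 0.84 ± 0.12 SE, edgeR adjusted *P* = 0.0011). KO lay above VAA in every library for these genes. *Dhcr7*, the last enzyme of cholesterol synthesis, was higher (1.24). The summed list stood at 8098, 9848 and 8699 CPM in KO, 4279, 5758 and 2527 in VAA and 5364, 4936 and 5618 in WT under DSS. Fatty acid oxidation genes were higher in 4 of 23 (against 6.01% of all genes) and lower in 1 (against 9.41%) at a median of 0.31. Without VAA replicate 3, 4 were higher and 2 lower at 0.18. The higher count was 7 without VAA DSS replicate 2 and 2 on the 6 libraries alone. Of 25 respiratory chain genes, 5 were higher and 0 lower at a median of 0.32, with 3 higher without VAA replicate 3, 2 to 10 when each library was left out in turn, and 0 on the 6 libraries alone.

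**Figure D4:**
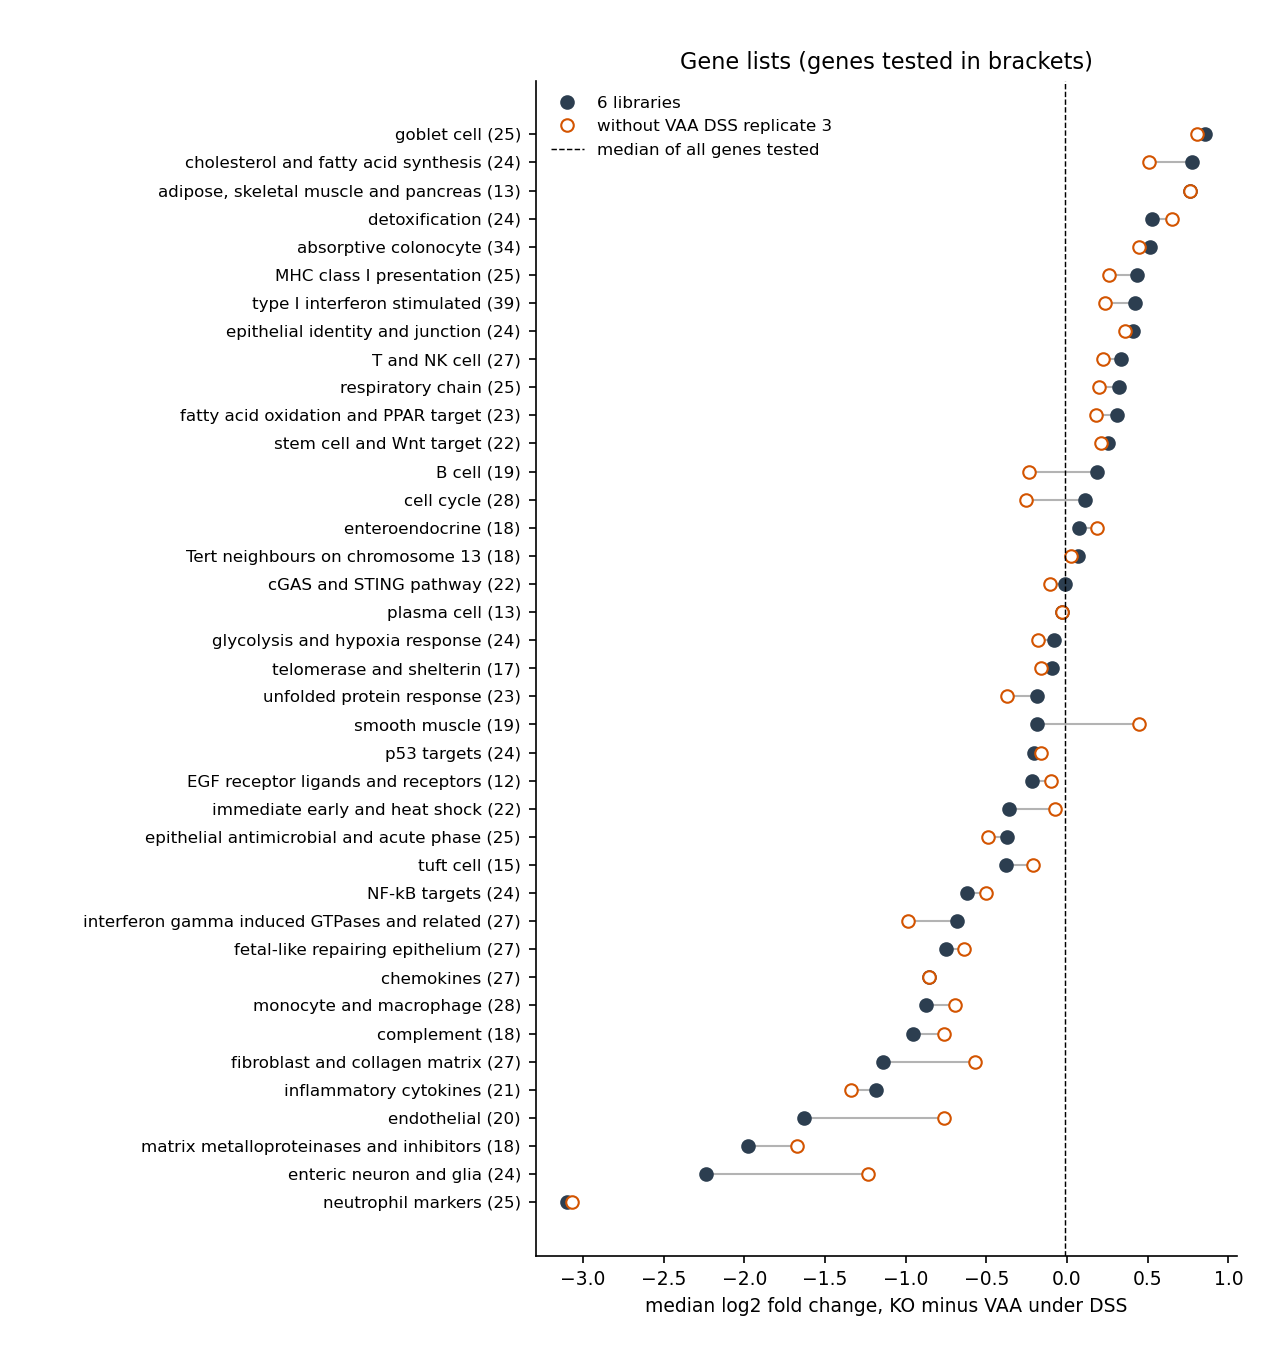
The median log2 fold change of KO over VAA under DSS for each gene list with 12 or more tested members, with all libraries and without VAA DSS replicate 3, and a dashed line at the median of all genes tested. Neutrophil markers (-3.10) and metalloproteinases (-1.98) lie far to the left in both fits, goblet genes (0.85) lie to the right, and the neuron and glia, endothelial and fibroblast lists shift toward 0 without that library.

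Enteric neuron and glia, fibroblast and endothelial lists gave lower calls in KO and 0 higher, with counts that turned on VAA replicate 3 and on the KO libraries. Of 24 enteric neuron and glia genes, 17 were lower and 0 higher at a median of -2.23, and without that library 12 at -1.23; 11 were lower without KO DSS replicate 2 and 2 on the 6 libraries alone. Of 27 fibroblast and collagen matrix genes, 19 were lower and 0 higher at a median of -1.14, but 9 at -0.57 without VAA replicate 3; omitting KO DSS replicate 1 or 2 left 7 each, and the 6 libraries alone 2. Of 20 endothelial genes, 11 were lower and 0 higher at a median of -1.63, but 7 at -0.76 without VAA replicate 3. Omitting KO DSS replicate 1, 2 or 3 left 7, 3 or 5 of these endothelial genes, and the 6 libraries alone 0. Smooth muscle differed from these lists, with 2 of 19 genes lower (against 9.41% of all genes) at a median of -0.19, which turned to 0.44 with 1 lower without VAA replicate 3. Its summed levels overlapped, at 2495, 1150.3 and 2955 CPM in KO and 1308, 1871 and 3914 CPM in VAA.

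The summed levels show where that library lay. Neuron and glia genes summed to 252, 163 and 649.5 CPM in VAA DSS replicates 1, 2 and 3, against 78, 60.7 and 86.2 CPM in KO and 135, 154 and 128 CPM in WT. Fibroblast genes summed to 4549, 3165 and 9630.3 CPM in VAA, 2364, 1843 and 3003 CPM in KO and 3209, 3905 and 2799.7 CPM in WT. Cell cycle genes ran the other way, at 2272, 2589 and 737 CPM in VAA, 1821, 2517 and 1842 CPM in KO and 2632, 3182 and 2646 CPM in WT. VAA replicate 3 was thus the highest of the 9 DSS libraries for the neuron, glia and fibroblast sums and the lowest for the cell cycle sum. Their part in the differences of other genes was not tested.

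**Figure D5:**
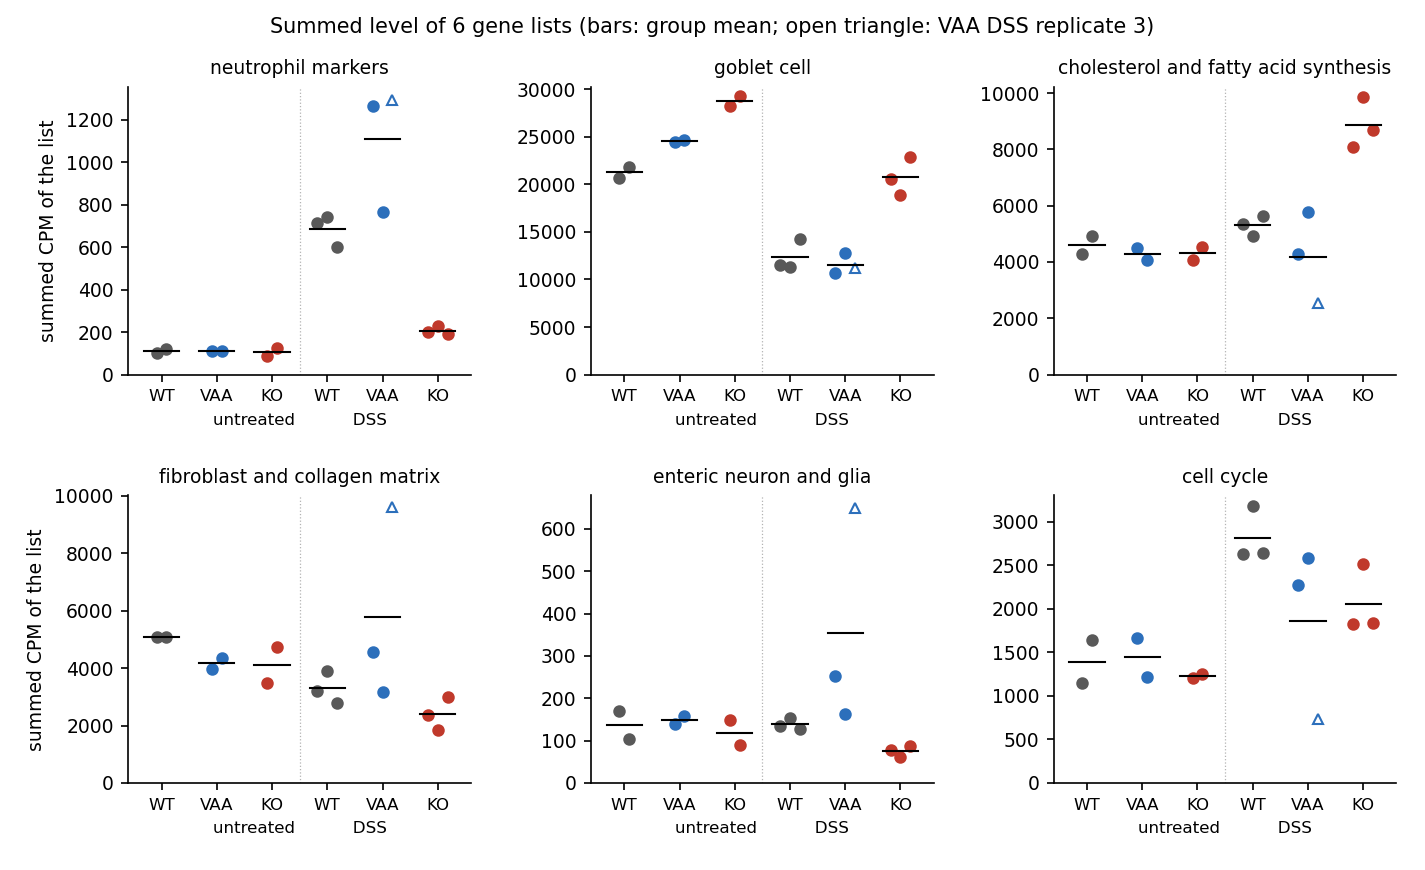
Summed CPM of 6 gene lists in each of the 15 libraries, grouped by genotype and treatment, with an open triangle for VAA DSS replicate 3. That library lies above all others in the fibroblast panel, at 9630 CPM, and in the neuron and glia panel, at 649.5 CPM, whereas in the neutrophil and goblet panels it lies among the VAA DSS libraries.

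Some stromal genes kept a wide gap without it. *Grem1*, a BMP antagonist of subepithelial fibroblasts, stood at 41, 32.3 and 45 CPM in KO and 199, 190.4 and 303 CPM in VAA (log2 fold change -2.55 ± 0.25 SE, edgeR adjusted *P* = 0.0002, and -2.30 without VAA replicate 3). *Ret*, the receptor of the enteric nervous system (-2.59, and -2.14 without it), and *Dcn*, decorin (-1.63 and -1.27), were called under both. *Vip*, a neuropeptide, measured 3.02, 2.93 and 5.95 CPM in the KO libraries and 34.4, 13 and 118 CPM in the VAA libraries (log2 fold change -3.79 ± 0.68 SE, edgeR adjusted *P* = 0.0038, and -2.57 without VAA replicate 3), but it missed the threshold on the 6 libraries alone (adjusted *P* = 0.056). *Col4a1*, a basement membrane collagen, was at 118, 90.5 and 166 CPM in KO and 379, 218 and 1029 CPM in VAA (log2 fold change -2.12 ± 0.42 SE, edgeR adjusted *P* = 0.0063, and -1.25 without VAA replicate 3), and it missed the threshold on the 6 libraries alone as well (adjusted *P* = 0.084).

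Of 22 cGAS-STING genes tested, 4 were lower (against 9.41% of all genes) and 1 higher (against 6.01%) at a median of -0.01, and without VAA replicate 3, 3 and 1 at -0.10, with 1 to 4 lower when each library was left out in turn and 2 on the 6 libraries alone. *Mb21d1*, which encodes cGAS, did not pass, at 4.96, 6.35 and 6.17 CPM in KO and 10.5, 8.38 and 3.65 CPM in VAA (log2 fold change -0.38 ± 0.33 SE, edgeR adjusted *P* = 0.52, and -0.69 (adjusted *P* = 0.10) without VAA replicate 3, the only VAA library below the KO libraries). *Tmem173*, which encodes STING, stood at 19.7, 20.6 and 21 CPM in KO, 38.3, 47.1 and 29.3 CPM in VAA and 50.4, 43.2 and 22.4 CPM in WT. KO lay below VAA in every library (log2 fold change -0.91 ± 0.25 SE, edgeR adjusted *P* = 0.029, and -1.06 (adjusted *P* = 0.016) without VAA replicate 3). The call was lost without VAA DSS replicate 1 (0.055) or 2 (0.072) and without KO DSS replicate 1 (0.093), 2 (0.084) or 3 (0.075), and with only the DSS libraries (0.07), where the values are adjusted *P*. *Stim1*, a calcium sensor that holds STING in the endoplasmic reticulum, was higher (log2 fold change 0.62 ± 0.12 SE, edgeR adjusted *P* = 0.0046), and *Ifi205*, a DNA-sensing interferon-inducible gene of a closely related family, was lower (log2 fold change -1.86 ± 0.39 SE, edgeR adjusted *P* = 0.0084).

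Type I interferon stimulated genes were higher in 1 of 39 (against 6.01% of all genes) and lower in 0 at a median of 0.42, and without VAA replicate 3, 1 and 1 at 0.24. Without VAA DSS replicate 2, 12 were higher. The 1 higher gene was *Trim30d* (log2 fold change 1.56 ± 0.41 SE, edgeR adjusted *P* = 0.021), which lost its call on the 6 libraries alone (0.1), without VAA DSS replicate 1 (0.067) and without KO DSS replicate 1 (0.08). Interferon gamma induced GTPases were lower in 4 of 27 (against 9.41% of all genes) and higher in 0 at a median of -0.68, with 5 lower without VAA replicate 3 and 1 to 6 when each library was left out. *Gbp5*, of a family with near-identical members, had the smallest *P* among them (log2 fold change -1.53 ± 0.29 SE, edgeR adjusted *P* = 0.0047). MHC class I genes were higher in 5 of 25 (against 6.01% of all genes) and lower in 0 at a median of 0.43, with 4 higher without VAA replicate 3. Omitting VAA DSS replicate 1 or 2 gave 3 or 12, omitting KO DSS replicate 1 or 3 gave 2 or 3, and the 6 libraries alone gave 2.

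Of 27 T and NK cell genes, 2 were higher and 2 lower, near the 15.4% called over all genes, at a median of 0.33, and without VAA replicate 3, 0 and 1; on the 6 libraries alone 0 passed. Of 19 B cell genes edgeR called 0 at a median of 0.18 and 0 without VAA replicate 3, with 1 at an unadjusted *P* under 0.05 and 0 called by DESeq2. *Blnk*, a B cell signalling adaptor, had a log2 fold change of -0.25 and *Fcer2a*, the low-affinity IgE receptor, one of 0.39, and neither passed (edgeR adjusted *P* = 0.075 and 0.55), with *Fcer2a* at 0.18 without VAA replicate 3. Cell cycle genes were called by edgeR in 0 of 28 at a median of 0.11, with 0 at an unadjusted *P* under 0.05 and 0 called by DESeq2, and 2 were lower without VAA replicate 3. Among stem cell and Wnt target genes 3 of 22 were higher (against 6.01% of all genes) and 4 lower (against 9.41%). The list median was 0.26, with 6 of the 22 members below 0. The calls of smallest *P* were *Ephb3*, a crypt positioning receptor (0.85), and *Nkd1*, a Wnt feedback gene (-1.55, and -0.85 without VAA replicate 3). On the 6 libraries alone 0 of the 22 passed (adjusted *P* = 0.056 and 0.11 for *Ephb3* and *Nkd1*), and *Nkd1* was lost without KO DSS replicate 2 (0.064). The counts without VAA replicate 3 were 1 and 3, and the lower count ran from 0 to 4 over all single-library omissions.

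Tuft cell genes were lower in 6 of 15 (against 9.41% of all genes) and higher in 1 (against 6.01%). The lower calls were led by *Alox5ap*, the 5-lipoxygenase activating protein (-2.30 ± 0.27 SE, edgeR adjusted *P* = 0.00051), which neutrophils also express, and by *Dclk1*, a tuft cell kinase (-1.05 ± 0.21 SE, edgeR adjusted *P* = 0.007). Without VAA replicate 3, 4 were lower, leaving out each library in turn gave 2 to 6, and the 6 libraries alone gave 1, without *Dclk1* (adjusted *P* = 0.081). Enteroendocrine genes were lower in 3 of 18 (against 9.41% of all genes) and higher in 1 (against 6.01%), and without VAA replicate 3, 1 and 2. *Tac1*, the tachykinin precursor that enteric neurons share, was lower (-1.48 ± 0.20 SE, edgeR adjusted *P* = 0.001), and *Insl5*, a hormone of distal colon L cells, was higher (0.65 ± 0.16 SE, edgeR adjusted *P* = 0.017) but lost its call on the 6 libraries alone (0.1) and when KO DSS replicate 1 (0.068) or 3 (0.061) was left out. Glycolysis and hypoxia response genes were lower in 4 of 24 (against 9.41% of all genes) and higher in 0, with 5 lower without VAA replicate 3. Among the lower genes were *Hif1a*, the hypoxia transcription factor (-0.76), and *Pfkfb3*, a glycolytic regulator (-1.96).

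The remaining lists gave 0 to 3 calls each, beside 6.01% higher and 9.41% lower over all genes. MHC class II genes were called by edgeR in 0 of 9 and in 0 without VAA replicate 3, with 0 at an unadjusted *P* under 0.05 and 0 called by DESeq2. Among 13 plasma cell genes 1 was higher, *Txndc5* (0.64), and among 7 mast cell and eosinophil genes 1 was lower, *Il5ra* (-1.35, and -0.90 without VAA replicate 3), and both calls were lost without VAA replicate 3 (adjusted *P* = 0.055 and 0.082). Immediate early and heat shock genes were higher in 1 of 22 and lower in 2, also without VAA replicate 3, and 4 were lower without VAA DSS replicate 2. Unfolded protein response genes were lower in 1 of 23, with 4 lower without VAA replicate 3 and 0 to 4 when each library was left out. On the 6 libraries alone 0 of either list passed. The 1 gene was *Trib3*, a pseudokinase induced by stress (-4.31), which stood at -1.31 (adjusted *P* = 0.40) without VAA DSS replicate 1 and lost its call without KO DSS replicate 1 (0.11), 2 (0.081) or 3 (0.11). Of 13 genes marking fat, skeletal muscle or pancreas, 1 was higher, the elastase gene *Cela1* (1.74 ± 0.25 SE, edgeR adjusted *P* = 0.0012), and 1 without VAA replicate 3.

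Telomerase and shelterin genes other than *Tert* were called by edgeR in 0 of 17 at a median of -0.09, and in 0 without VAA replicate 3, with 0 at an unadjusted *P* under 0.05 and 0 called by DESeq2. *Ctc1* and *Ten1*, which belong to the CST complex at chromosome ends, had the smallest *P*, with log2 fold changes of 0.33 and 0.27 (edgeR adjusted *P* = 0.18 and 0.21), and *Ctc1* stood at 0.21 without VAA replicate 3. Of 18 genes neighbouring *Tert* on chromosome 13, 3 were higher in KO (against 6.01% of all genes) and 0 lower. The higher count was 2 without VAA replicate 3, 5 without VAA DSS replicate 2 and 2 on the 6 libraries alone. The 3 were *Tppp*, given above, *Slc12a7*, a potassium chloride cotransporter (0.70 ± 0.13 SE, edgeR adjusted *P* = 0.004), and *Sdha*, a succinate dehydrogenase subunit (0.45 ± 0.14 SE, edgeR adjusted *P* = 0.045), the last of which missed the threshold without VAA replicate 3 (0.30, adjusted *P* = 0.099), on the 6 libraries alone (0.15) and without most other single libraries. Of 24 p53 target genes 1 was higher (against 6.01% of all genes) and 2 lower (against 9.41%). Without VAA replicate 3 or on the 6 libraries alone 0 of either passed, while 5 were lower without VAA DSS replicate 2. *Cdkn1a*, the p21 cell cycle inhibitor, stood at 210.2, 204 and 230.0 CPM in KO and 126, 189 and 99.3 CPM in VAA (log2 fold change 0.63 ± 0.20, edgeR adjusted *P* = 0.0497), and was not called without VAA replicate 3 (adjusted *P* = 0.13), on the 6 libraries alone (0.14) or without most other single libraries.

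Without DSS the same alleles gave no called gene. KO against VAA in untreated colon, 2 libraries each, had 0 of 17477 genes past the edgeR threshold (0%), with 401 at an unadjusted *P* under 0.05 and a smallest adjusted *P* of 0.856, and DESeq2 called 1. Sex was not matched there: *Ddx3y*, a Y-linked gene, had 868 counts in untreated KO replicate 2, 9 in KO replicate 1, and 11 and 8 in untreated VAA, whereas the 6 DSS libraries had 5 to 17. Neutrophil markers differed by a median of 0.07 there and goblet genes by 0.21. Other lists had larger medians there, with no member called. Interferon gamma induced GTPases stood at -0.81 (-0.68 under DSS) and type I interferon stimulated genes at -0.63 (0.42 under DSS). MHC class II genes stood at -0.54 (0.33 under DSS), and genes marking fat, skeletal muscle or pancreas at -0.84 (0.76 under DSS). The test of the difference between the DSS and untreated contrasts called 12 genes (0.0687%), 4 higher and 8 lower, with 2542 at an unadjusted *P* under 0.05. For *Areg* the levels were 21.5 and 35.7 CPM in untreated KO and 10.2 and 12.4 CPM in untreated VAA, the reverse of its order under DSS (difference -2.33 ± 0.33 SE, edgeR adjusted *P* = 0.041). *Otc*, ornithine transcarbamylase of the urea cycle, stood at 2.71, 2.59 and 3.27 CPM in KO and 0.181, 0.231 and 0 CPM in VAA under DSS, against 7.18 and 6.5 CPM in untreated KO and 5.72 and 7.5 CPM in untreated VAA (difference 4.08 ± 0.57 SE, edgeR adjusted *P* = 0.041). *Ifitm1*, an interferon-induced membrane protein, stood at 5.58, 7.51 and 8.99 CPM in KO and 40.8, 37.8 and 55.6 CPM in VAA under DSS and at 3.88 and 5.28 CPM in untreated KO and 4.44 and 4.68 CPM in untreated VAA (difference -2.60 ± 0.39 SE, edgeR adjusted *P* = 0.041). The number of such genes depended on the fit: 0 passed when only the 4 groups entered it, 88 without VAA DSS replicate 3, 837 without VAA DSS replicate 2 and 0 without VAA DSS replicate 1 or any 1 KO DSS library.

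WT libraries place the 2 groups under DSS, although each contrast with WT shares libraries with the KO and VAA comparison. Against WT, KO had 561 genes higher (3.21%) and 430 lower (2.46%), while VAA had 1 (0.00572%), with 2855 at an unadjusted *P* under 0.05 in edgeR and 36 called by DESeq2. With only those groups fitted, VAA against WT gave 0. These counts moved with single libraries: without WT DSS replicate 2, KO against WT gave 121 genes, without VAA DSS replicate 3, 2704, and without VAA DSS replicate 2, VAA against WT gave 848.

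For neutrophil markers the median was -2.94 for KO over WT, with 19 of 25 lower, and 0.23 for VAA over WT. *S100a8* changed by -4.45 ± 0.33 SE, edgeR adjusted *P* = 2.8e-05 for KO over WT, and by 0.49 ± 0.27 SE, edgeR adjusted *P* = 0.36 for VAA over WT. Goblet genes had a median of 0.57 for KO over WT, with 7 of 25 higher, and -0.18 for VAA over WT. Fibroblast genes had medians of -0.38 and 0.66, and neuron and glia genes -0.87 and 1.24, with 0 of the latter called for KO over WT. All VAA over WT medians here include VAA replicate 3. In VAA replicates 1 and 2 fibroblast genes summed to 4549 and 3165 CPM, overlapping the 2800 to 3905 CPM of WT. Neuron and glia genes summed there to 252 and 163 CPM, against 128 to 154 CPM in WT. *Reg4* stood at 38.1, 34.9 and 54.2 CPM in WT, between KO and VAA, and changed by 0.63 and -1.71 in the contrasts of KO and of VAA with WT, neither of which passed.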

How the data were processed

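RNA-seq of mouse colon covered 15 libraries of 6 groups, defined by genotype and treatment in the labels. The deposited table holds estimated counts per gene symbol, which were whole numbers; per the submitters' processing notes kallisto 0.46 and mm10 were used. The log2 CPM table deposited by the authors was matched to within 0.0182 by recomputing log2 CPM from these counts with a prior count of 2. The deposited counts were tested with edgeR 4.0.16 (R 4.3.3, limma 3.58.1, DESeq2 1.42.0): TMM scaling, filterByExpr, 1 mean per group over all 15 libraries (9 residual degrees of freedom), quasi-likelihood F tests, and Benjamini-Hochberg adjustment over all genes tested. Printed CPM are TMM-scaled. Fold changes are log2, KO over VAA unless stated. Totals of 10561247 to 17541584 counts set the precision, and counting intervals (95%, exact) and floors (3 counts over a group) cover counting error only.

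Named genes are *Tert*, *Mb21d1* and *Tmem173*, the 10 highest and 10 lowest changes among genes called with and without VAA DSS replicate 3 (mean log2 CPM of at least 2, libraries apart, no predicted models), up to 4 called members per list by smallest *P* (2 where none was called), and the 5 interaction genes of smallest *P*. Other genes were named after their values were seen. Some genes, including 1 that the rule names and 1 of the 12 interaction genes, are not reported here. The 41 lists (949 genes, 884 tested) and the comparison itself were chosen with earlier results of these data known; no set test was run. Genes with near-identical copies (*Mettl7a2*, *Saa3*, *Sprr2d*, Gbp, H2 and similar families) are uncertain, since reads may be split among them. Promoters came from RefSeq (GRCm38.p6), which matched 12092 tested symbols. Alternatives were other scaling, filters, tests, library sets, quality weights, a replicate block and leaving out each library. The fits were also run on simulated counts with known changes, drawn with the spread estimated from these data and with no outlying library. Of 50 genes changed at each size, 8 were recovered at 1.5-fold, 26 at 2-fold and 49 at 4-fold. Without VAA DSS replicate 3 these were 2, 18 and 45. How the fits handle a library like VAA DSS replicate 3 was not tested by this.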

Additional observations from a re-analysis of the deposited data

Results flagged for a closer look

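For 12 genes the KO against VAA difference under DSS differed from that in untreated colon by a test of the difference itself, the edgeR interaction term over 15 libraries, and 11 of them are described. The values are the log2 difference under DSS less the one untreated. Among secreted and remodelling genes, *Lcn2* differed by -5.58 (adjusted *P* = 0.048; -5.34 under DSS and 0.24 untreated). *Mmp9* differed by -4.31 (adjusted *P* = 0.048; -3.60 under DSS and 0.71 untreated). *Saa3* differed by -3.75 (adjusted *P* = 0.041; -3.92 under DSS and -0.17 untreated). The EGF receptor ligands were *Ereg* at -3.21 (adjusted *P* = 0.041; -2.79 under DSS and 0.42 untreated) and *Areg* at -2.33 (adjusted *P* = 0.041; -0.99 under DSS and 1.35 untreated). *Areg* was higher in untreated KO than in untreated VAA and lower under DSS. *Grem1* differed by -2.63 (adjusted *P* = 0.041; -2.55 under DSS and 0.08 untreated). *Ifitm1* differed by -2.60 (adjusted *P* = 0.041; -2.60 under DSS and 0.00 untreated). *Cd300lf*, a myeloid inhibitory receptor, differed by -2.35 (adjusted *P* = 0.048; -2.42 under DSS and -0.08 untreated).

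The other described genes had positive values. *Mettl7a2* differed by 7.91 (adjusted *P* = 0.048; 8.33 under DSS and 0.42 untreated), and since the VAA DSS libraries all had 0 counts its fitted value depends on the prior count. *Otc* differed by 4.08 (adjusted *P* = 0.041; 4.13 under DSS and 0.05 untreated). *Thrb*, a thyroid hormone receptor, differed by 1.40 (adjusted *P* = 0.041; 1.16 under DSS and -0.24 untreated). With 2 untreated libraries per genotype and 0 to 837 such genes when each library was left out in turn, which genes pass is not stable. With replicate number as a block, 0 genes passed.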

How the results depend on the processing

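KO against VAA under DSS gave 545 called genes with only the groups compared and 1657 with only the DSS libraries, and from 1380 (without KO DSS replicate 2) to 3796 (without VAA DSS replicate 2) when each library was left out. Without VAA DSS replicate 3 it gave from 462 to 2083 when a further library was left out. The untreated comparison gave 1 by DESeq2 and 0 whichever library was left out. The interaction gave 107 without an expression filter, 523 by DESeq2, 115 by limma on the deposited log2 CPM, 0 with only the groups compared, 146 with quality weights, and 0 to 837 when each library was left out. KO against WT under DSS gave 1753 by DESeq2, 2766 with only the groups compared, 344 with only the DSS libraries, 3503 with quality weights, and 121 to 2704 when each library was left out. VAA against WT gave 2 without an expression filter, 36 by DESeq2, 0 with only the groups compared and 0 to 848 when each library was left out. The cause of these changes was not tested.

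With replicate number as a block, KO against VAA under DSS gave 2647 calls, the interaction 0 and VAA against WT 0. Same-numbered libraries did not deviate together in all groups (33 pairs, correlation -0.159 to 0.312, 8 of them over 0.1, and 7 of 15 libraries closest to their own number), so the numbers were not taken to pair the samples. Among untreated libraries all 6 such pairs across genotypes were over 0.1 (0.138 to 0.312), where 2 libraries a group make both numbers give the same value, and among DSS libraries the pairs lay between -0.103 and 0.0581. Of 159 named genes called, 97 passed under each of the 24 alternatives that gave a value. With every library left out in turn, 126 passed. Many of these genes were named for a small *P*, or had to be called without VAA DSS replicate 3 as well. Their shares therefore do not describe all called genes. Without VAA DSS replicate 3, 145 of the 159 stayed called, against 1693 of all 2695 called genes (62.8%). None of the named genes changed sign while called. Depth limits genes with few counts, such as *Tert* and *Csf3*, and 3 libraries per group limit which small changes pass.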
